A study of Mus musculus with 7 samples.

Results

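The genes of DNA replication and mitosis were followed as a group of 40 named genes, 11 that copy DNA and 29 that act in mitosis. Their probes were found by the gene name in the scanner files, with the older names Cdc2a read as Cdk1 and Cdc45l as Cdc45. This gave 61 probes for 39 of the 40 genes, 11 of 11 replication genes and 28 of 29 mitosis genes, within 17083 genes tested. Ncapg, a condensin subunit, had no row under that name. The genes were listed by their known function, with earlier results of these data known.

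Cells that divide switch these genes on in turn. The MCM helicase is loaded onto DNA with the help of Cdc6 before S phase and activated with Cdc45 at its start. In S phase Pcna clamps the polymerases to the template, and Rrm2 and Tyms supply deoxynucleotides. In G2 and mitosis the B-type cyclins with Cdk1, the Polo and Aurora kinases and a set of kinesins and kinetochore proteins build the spindle and part the chromosomes. In skin, most such cells lie in the basal layer of the epidermis and in the matrix of growing hair follicles.

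The skin came from the back of hairless HR-1 mice, all male and 5 weeks of age. The diet was AIN-93G in every group, given with or without glucosylceramide (GC), a lipid made of ceramide and a sugar. Skin was taken without treatment, at 12 days of diet (control-fed n = 3, GC-fed n = 3), or after 2 days of daily treatment with 10% sodium dodecyl sulfate (SDS), a detergent that damages the skin barrier, at 14 days of diet (control-fed n = 4, GC-fed n = 4). Each of the 7 arrays carried a GC-fed and a control-fed sample in the 2 dyes, and the labels number the samples as biological replicates without saying whether each came from 1 animal or from pooled RNA.

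Levels below are normalised log2 intensities, which compare samples for the same probe and not genes with each other. A gene is called changed at an adjusted p under 0.05 in limma's fits, with Benjamini-Hochberg adjustment over all 17083 genes. Probes well above background made up 48.5% to 54.5% of the green and 58.2% to 62.8% of the red channel, and 0 spots were saturated. The before-SDS arrays lay on 1 slide and the after-SDS arrays on another, so SDS and slide cannot be told apart. Skin before SDS was untreated at 12 days of diet and skin after SDS was treated daily up to 14 days. Days of diet and the daily procedure therefore cannot be told apart from the detergent either, and "SDS effect" below names the comparison only. Across all genes, which are not independent replicates, the diet ratio on after-SDS array 4 ran against that on after-SDS arrays 1, 2 and 3, with r = -0.50, -0.62 and -0.30. Its labelled direction was kept. The calls for the diet effect after SDS are also given with its sign turned, and the counts of genes higher after SDS with its diets exchanged. All 10 basal and all 10 suprabasal keratinocyte markers had a probe above the filter on dim probes, so both layers of the epidermis were represented.

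The first question was how the level of these genes differed between skin after SDS and skin before it, in each diet. In control-fed skin 13 of 39 genes rose and 0 fell, against 6.7% of all genes called higher and 8.42% called lower. In GC-fed skin 23 of 39 rose and 0 fell, against 6.12% and 7.47% of all genes. The risers were 12 of 28 mitosis genes and 1 of 11 replication genes in control-fed skin, and 19 of 28 and 4 of 11 in GC-fed skin. The median SDS effect was 0.40 (log2) for mitosis genes and 0.10 for replication genes in control-fed skin, and 0.53 and 0.15 in GC-fed skin, where the median of all genes was 0.00 in both (-0.0017 and -0.0016). Fitted effects above 0 were found for 33 of 39 genes in control-fed and 35 of 39 in GC-fed skin, against 49.7% of all genes in each diet. An unadjusted p under 0.05 was found for 21 and 28 of the 39, against 32.6% and 30.2% of all genes. In control-fed skin, 17 of 39 genes had every after-SDS sample above every before-SDS sample (14.5% of all genes) and 0 had the reverse (16.3%). In GC-fed skin these counts were 25 (11.1%) and 0 (12.3%). All 13 genes called in control-fed skin were also called in GC-fed skin. Over the whole array, 620 of the 1144 genes called higher in control-fed skin were also called higher in GC-fed skin. The samples of the 2 diets share arrays and slides.

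These calls depended on how the channels were normalised and on single arrays. With each channel scaled to its 75th percentile, in place of normalisation within and between arrays, 0 genes of the whole array passed. The standard error of a typical gene then rose from 0.10 to 0.33, while the effect on Aurka was 0.86 in control-fed and 0.94 in GC-fed skin. Averaging the probes of a gene left 5 of 39 in control-fed and 9 of 39 in GC-fed skin, where 2.87% and 2.67% of all genes were called higher. The scanner software's processed signals left 8 (6.64% of all genes) and 12 (3.34%). Without before-SDS array 1, 0 members (0.287% of all genes) were called in control-fed and 9 (4.45%) in GC-fed skin. Without before-SDS array 2 the counts were 7 (3.88%) and 6 (1.21%), and without before-SDS array 3 they were 2 (2.41%) and 5 (1.3%). Without after-SDS array 1 they were 6 (3.68%) and 10 (4.08%), without array 2 they were 8 (4.5%) and 21 (5.08%), and without array 3 they were 19 (5.63%) and 12 (2.29%). Without after-SDS array 4 they were 11 (10.7%) and 25 (7.18%), and with the diets of that array exchanged they were 14 (12.6%) and 26 (8.46%). Over the left-out arrays the median effect of mitosis genes stayed between 0.29 and 0.48 in control-fed and between 0.36 and 0.64 in GC-fed skin. Whole skin was measured, so a change in the number of dividing cells and a change in RNA per cell cannot be told apart.

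**Figure D1:**
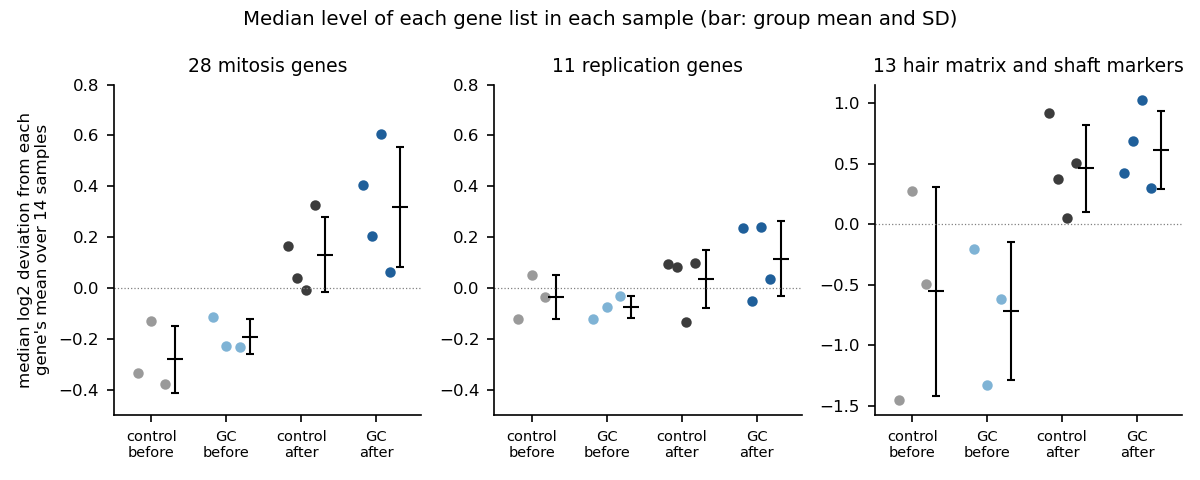
Median level of 28 mitosis genes, 11 replication genes and 13 hair matrix and shaft markers in each of the 14 samples, with group mean and SD beside the points (n = 3 before and n = 4 after SDS per diet). Values are log2 deviations from the mean of each gene's 4 group means, which the axis labels as the mean over 14 samples. All 8 after-SDS samples lie above all 6 before-SDS samples for the mitosis genes, from -0.01 upward against -0.11 downward, whereas the replication genes and the hair markers of control-fed skin overlap between before and after.

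The 4 mitosis genes with the smallest p-values in each diet were Aurka, Plk1, Birc5 and Cenpe. Aurka, the kinase that matures the spindle poles, read 9.51, 9.95 and 9.77 in the 3 control-fed samples before SDS and 10.59, 10.60, 10.45 and 10.71 in the 4 after it. In GC-fed skin Aurka read 9.96, 9.66 and 9.81 before SDS and 10.91, 10.84, 10.95 and 10.32 after it. Every after-SDS sample therefore lay above every before-SDS sample. The SDS effect on Aurka was 0.88 ± 0.13 (log2, SE, 1.84-fold, limma adjusted p = 0.00302) in control-fed and 0.91 ± 0.13 (1.88-fold, adjusted p = 0.00407) in GC-fed skin.

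Plk1, the Polo kinase that drives entry into mitosis, showed the same order of samples. It read 9.55, 9.94 and 9.67 before and 10.50, 10.27, 10.25 and 10.49 after SDS in control-fed skin. In GC-fed skin it read 9.86, 9.66 and 9.56 before and 10.86, 10.37, 10.69 and 10.28 after. The groups did not overlap in either diet, and the effect was 0.68 ± 0.14 (1.60-fold, limma adjusted p = 0.00824) and 0.84 ± 0.14 (1.79-fold, adjusted p = 0.0053).

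Birc5, or survivin, is the subunit that brings the chromosomal passenger complex to centromeres. It read 11.53, 11.86 and 11.47 before and 12.34, 12.41, 12.13 and 12.38 after SDS in control-fed skin. With GC in the diet the levels were 11.88, 11.66 and 11.55 before and 12.79, 12.47, 12.80 and 12.16 after. Again no after-SDS sample was as low as a before-SDS sample, with effects of 0.71 ± 0.15 (1.63-fold, limma adjusted p = 0.0111) and 0.84 ± 0.15 (1.79-fold, adjusted p = 0.0075).

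Cenpe, the kinesin that carries chromosomes along the spindle, had the largest fitted effect among the 39 genes in each diet. It read 10.42, 10.81 and 10.42 before and 11.53, 11.47, 11.14 and 11.65 after SDS in control-fed skin. The GC-fed values were 10.79, 10.74 and 10.60 before and 11.87, 11.67, 12.12 and 11.23 after. The groups did not overlap, and the effect was 0.91 ± 0.19 (1.88-fold, limma adjusted p = 0.00886) and 1.00 ± 0.19 (2.00-fold, adjusted p = 0.00814). Cenpe has 2 further, dimmer probes, and with all its probes averaged the effect was 0.46 and 0.53 and was no longer called (adjusted p = 0.301 and 0.253).

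**Figure D2:**
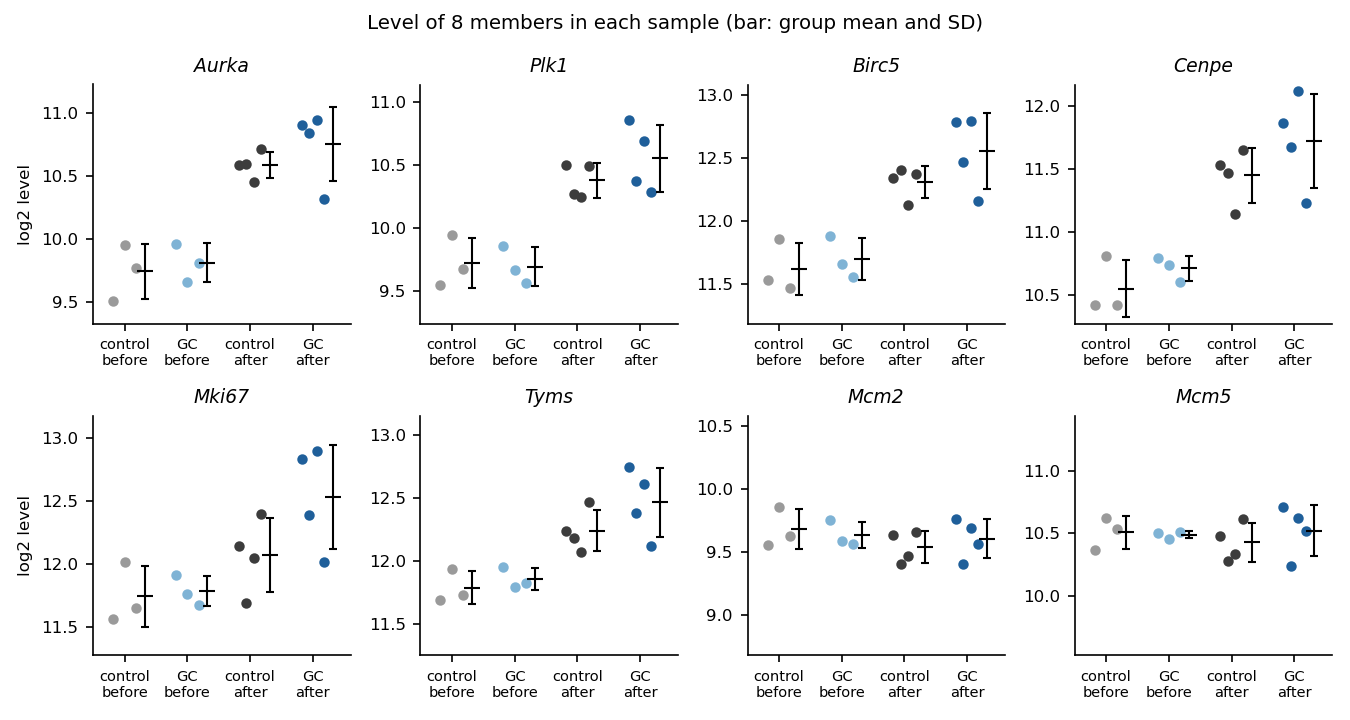
Log2 level of 8 genes in each sample, with group mean and SD beside the points (3 samples per diet before and 4 after SDS), each panel spanning the same log2 range. Aurka, Plk1, Birc5, Cenpe and Tyms lie higher after SDS in both diets without overlap, Mki67 overlaps in control-fed skin, and Mcm2 and Mcm5 overlap in both diets.

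The promoters of the mitosis and replication genes differ in known motifs, and those of Aurka, Plk1, Birc5 and Cenpe are shown beside those of Mcm2 and Mcm5, which did not pass the test. Late cell cycle genes commonly carry the cell cycle genes homology region (CHR, TTTGAA or TTCGAA) with CCAAT boxes, and genes of S phase commonly carry E2F sites (searched as TTTCCCGC, TTTGGCGC, TTTCGCGC or TTTGCCGC). RefSeq's promoter table (GRCm38.p6, 250 bases before to 50 after the gene's start) matched 34 of the 40 genes, not Aurkb, Ccna2, Foxm1, Kif20a, Mcm4 and Tpx2. The sequences run 5′ to 3′ on the gene's strand, and capitals mark a match to any of these motifs on either strand. They lie at chr2:172370521-172370820 (minus strand) for Aurka, chr7:122159185-122159484 (plus) for Plk1, chr11:117848987-117849286 (plus) for Birc5, chr3:135212313-135212612 (plus) for Cenpe, chr6:88898731-88899030 (minus) for Mcm2 and chr8:75109259-75109558 (plus) for Mcm5.
Aurka: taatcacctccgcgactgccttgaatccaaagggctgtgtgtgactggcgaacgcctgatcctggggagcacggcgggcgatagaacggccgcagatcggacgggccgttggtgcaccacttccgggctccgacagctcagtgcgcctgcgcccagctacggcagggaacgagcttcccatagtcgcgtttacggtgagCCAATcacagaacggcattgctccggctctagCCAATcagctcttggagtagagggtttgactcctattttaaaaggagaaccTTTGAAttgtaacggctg
Plk1: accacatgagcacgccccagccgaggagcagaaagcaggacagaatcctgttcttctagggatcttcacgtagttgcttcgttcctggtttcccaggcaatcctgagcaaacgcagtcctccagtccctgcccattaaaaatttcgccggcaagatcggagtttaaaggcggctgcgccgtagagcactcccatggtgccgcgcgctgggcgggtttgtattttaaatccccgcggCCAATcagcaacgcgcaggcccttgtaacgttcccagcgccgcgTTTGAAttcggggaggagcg
Birc5: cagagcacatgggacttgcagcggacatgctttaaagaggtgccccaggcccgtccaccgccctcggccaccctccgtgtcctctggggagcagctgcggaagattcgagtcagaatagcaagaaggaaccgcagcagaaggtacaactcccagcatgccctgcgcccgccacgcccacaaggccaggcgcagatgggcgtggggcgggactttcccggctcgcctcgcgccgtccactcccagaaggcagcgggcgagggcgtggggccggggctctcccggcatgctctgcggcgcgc
Cenpe: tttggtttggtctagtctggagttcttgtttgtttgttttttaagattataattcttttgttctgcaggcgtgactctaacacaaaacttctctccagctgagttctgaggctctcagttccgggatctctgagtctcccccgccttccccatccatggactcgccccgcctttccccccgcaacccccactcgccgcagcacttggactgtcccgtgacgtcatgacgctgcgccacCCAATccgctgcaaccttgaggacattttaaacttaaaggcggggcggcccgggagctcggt
Mcm2: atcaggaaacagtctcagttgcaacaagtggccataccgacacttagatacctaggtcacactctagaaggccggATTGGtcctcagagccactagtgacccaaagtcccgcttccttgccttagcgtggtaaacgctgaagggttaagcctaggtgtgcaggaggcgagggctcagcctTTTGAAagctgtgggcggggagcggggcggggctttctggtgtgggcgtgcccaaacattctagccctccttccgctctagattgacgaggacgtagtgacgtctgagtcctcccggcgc
Mcm5: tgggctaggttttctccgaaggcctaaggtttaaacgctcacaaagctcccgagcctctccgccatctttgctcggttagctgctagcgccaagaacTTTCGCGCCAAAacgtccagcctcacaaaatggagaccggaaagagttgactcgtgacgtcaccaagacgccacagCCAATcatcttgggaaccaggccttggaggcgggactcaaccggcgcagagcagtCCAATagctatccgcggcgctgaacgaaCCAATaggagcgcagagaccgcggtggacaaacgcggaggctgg

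Aurka and Plk1 each hold a CHR match just after the start, its first base at 33 and 31 relative to the start, downstream of CCAAT boxes at -51 and -19 in Aurka and -14 in Plk1. Cenpe holds a CCAAT box at -12, and the Birc5 window holds none of these letters. Mcm2, not called after SDS, holds a CHR match at -70. Mcm5 holds 2 overlapping E2F matches, at -153 and -149, and 3 CCAAT boxes. Over all matched genes, a CHR match was present in 19 of 24 mitosis genes (79.2%) and 3 of 10 replication genes (30.0%), against 19.2% of all 32851 promoters of the table. An E2F match was present in 2 of 24 mitosis genes (8.33%) and 5 of 10 replication genes, against 2.26% of all promoters. CCAAT was present in 20 of 24 mitosis genes (83.3%) and 8 of 10 replication genes (80.0%), against 37.4% of all promoters. The 24 mitosis genes include Ncapg, and a match describes the letters only.

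Among the cyclins and Cdk1, Ccnb1 and Ccnb2 rose in both diets. Ccnb1 (cyclin B1, the partner that activates Cdk1 at mitotic entry) read 9.08, 9.25 and 9.06 before and 9.69, 9.56, 9.45 and 9.99 after SDS in control-fed skin. In GC-fed skin it read 9.44, 9.32 and 9.27 before and 9.91, 9.65, 10.31 and 9.64 after. The groups did not overlap, but the calls lay near the threshold, with effects of 0.55 ± 0.16 (limma adjusted p = 0.0397) and 0.53 ± 0.16 (adjusted p = 0.048), and were lost with no filter on dim probes (adjusted p = 0.0633 and 0.0771) and without 6 of 7 arrays in control-fed and 5 of 7 in GC-fed skin. Further Ccnb1 probes, well above background in all 14 channels, gave smaller effects of 0.25 and 0.38 in each diet. Ccnb2 rose by 0.59 ± 0.14 (limma adjusted p = 0.0184) and 0.74 ± 0.14 (adjusted p = 0.00936).

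Cdk1 itself, the kinase these cyclins activate, did not pass. It read 9.04, 9.19 and 9.01 before and 9.29, 9.23, 9.08 and 9.24 after SDS in control-fed skin. With GC in the diet the levels were 9.24, 9.19 and 9.14 before and 9.42, 9.07, 9.67 and 9.20 after. The groups overlapped in each diet, and the effect was 0.12 ± 0.12 (limma adjusted p = 0.497) and 0.16 ± 0.12 (adjusted p = 0.401). Ccna2, the cyclin of S phase and G2, had effects of 0.30 ± 0.16 and 0.46 ± 0.16 (limma adjusted p = 0.213 and 0.0766).

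Of 7 mitotic kinases, Aurka, Plk1 and Bub1 rose in control-fed skin, and in GC-fed skin Aurkb did as well. Bub1, a kinase of the spindle checkpoint, rose by 0.48 ± 0.12 (limma adjusted p = 0.0227) and 0.66 ± 0.12 (adjusted p = 0.00845). Its paralogue Bub1b, which holds back anaphase in the same checkpoint, had effects of 0.01 and -0.03 with an SE of 0.10. The checkpoint kinase Ttk had effects of -0.05 and 0.03, from a probe well above background in 8 of 14 channels, and Melk, a kinase of proliferating cells, had 0.25 ± 0.14 and 0.40 ± 0.14 (limma adjusted p = 0.246 and 0.0832). Cdc20 and Ube2c, which work with the anaphase-promoting complex to destroy cyclin B, both rose in each diet, Cdc20 by 0.61 ± 0.16 and 0.72 ± 0.16 (limma adjusted p = 0.0256 and 0.0159). Cdca8, the borealin subunit of the passenger complex, rose by 0.48 ± 0.13 and 0.66 ± 0.13 (limma adjusted p = 0.0304 and 0.0107). A further Cdca8 probe, well above background in all 14 channels, gave smaller effects of 0.19 and 0.25.

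Of 10 spindle and kinetochore genes, 3 rose in control-fed skin (Cenpe, Kif20a and Prc1) and 7 in GC-fed skin, where Cenpf, Kif11, Nusap1 and Tpx2 joined them. The shares of all genes called higher were 6.7% and 6.12%. Prc1, which bundles the microtubules between the separating chromosomes, rose by 0.73 ± 0.16 in control-fed (limma adjusted p = 0.012) and 0.53 ± 0.16 in GC-fed skin (adjusted p = 0.0465). Its before and after samples overlapped in GC-fed skin, with 10.52 after SDS against 10.63 before it, and not in control-fed skin. Kif23, the kinesin of the same midzone, had effects of -0.07 and -0.03 with an SE of 0.09. Hmmr was well above background in 5 of 14 channels and in 0 of 3 control-fed samples before SDS, so no fold is given for it.

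Mki67, the proliferation antigen Ki-67 that coats mitotic chromosomes, rose in GC-fed skin and did not pass in control-fed skin. In control-fed skin it read 11.57, 12.02 and 11.65 before and 12.14, 11.69, 12.05 and 12.40 after SDS, with overlap between the groups. In GC-fed skin it read 11.91, 11.76 and 11.67 before and 12.84, 12.39, 12.90 and 12.02 after, without overlap. The effects were 0.36 ± 0.19 (limma adjusted p = 0.213) and 0.71 ± 0.19 (adjusted p = 0.0318). The GC-fed call was lost with averaged probes (adjusted p = 0.0681), with processed signals (0.0576), under the percentile scaling (adjusted p = 1) and without each before-SDS array and after-SDS arrays 1 and 3. Foxm1, the transcription factor of G2 and M phase genes, had effects of 0.25 ± 0.12 and 0.41 ± 0.12 (limma adjusted p = 0.163 and 0.0378).

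Top2a, the topoisomerase that untangles sister DNA, did not pass in either diet. It read 8.75, 9.06 and 8.85 before and 9.16, 8.70, 8.97 and 9.40 after SDS in control-fed skin. The GC-fed values were 9.04, 8.95 and 8.94 before and 9.37, 9.09, 9.39 and 8.99 after. The groups overlapped, and the effects were 0.19 ± 0.14 and 0.21 ± 0.14 (limma adjusted p = 0.363 and 0.345).

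**Figure D3:**
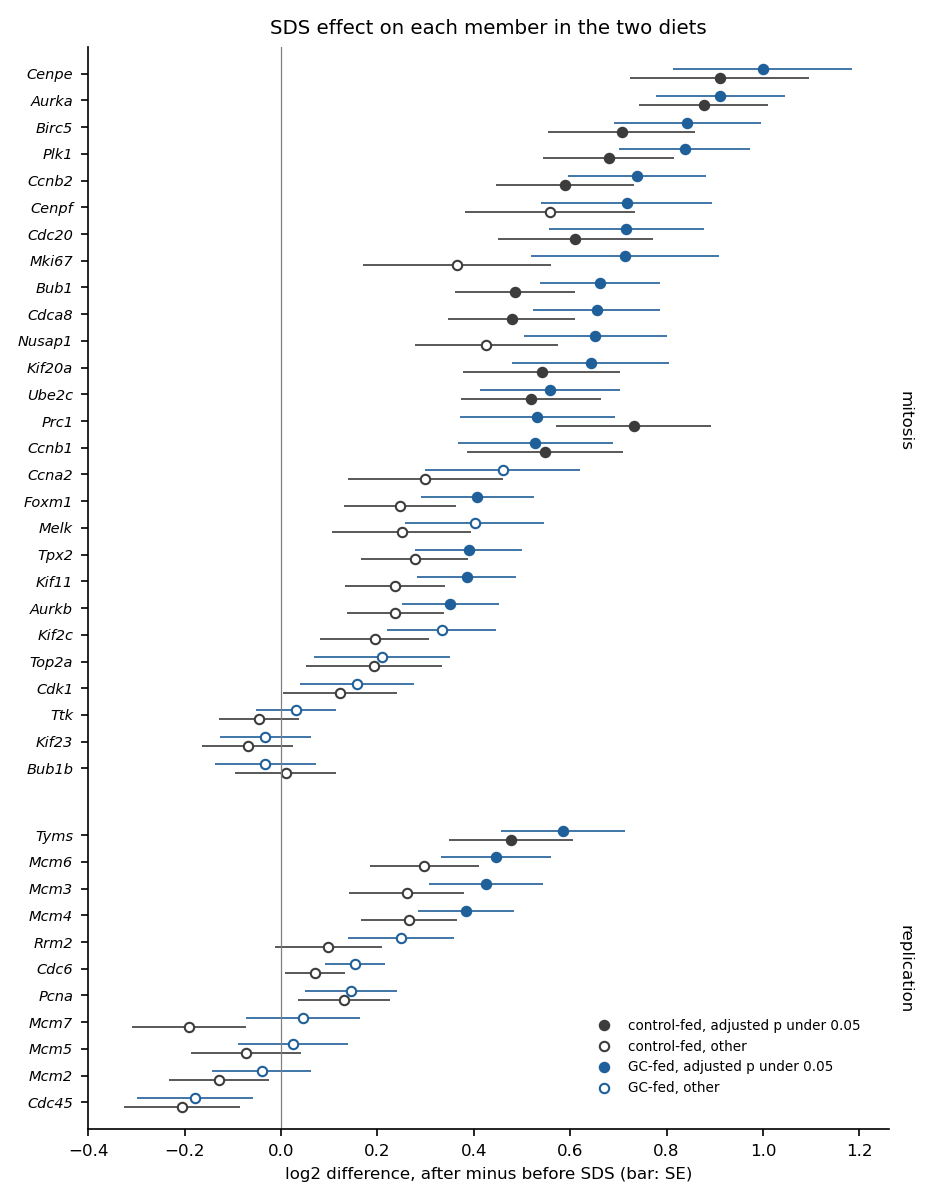
SDS effect on 38 of the 39 genes, without the dim Hmmr, as log2 difference after minus before, with its SE, in control-fed (black) and GC-fed (blue) skin, filled where the limma adjusted p was under 0.05. The mitosis genes reach 0.91 and 1.00 (Cenpe), the replication genes run from -0.21 (Cdc45) to 0.59 (Tyms), and 0 of the 38 fell past the threshold.

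The 6 MCM genes, subunits of the ring that unwinds DNA, were called in 0 of 6 cases in control-fed and 3 of 6 in GC-fed skin. Of all genes, 6.7% and 6.12% were called higher. Mcm3, Mcm4 and Mcm6 rose in GC-fed skin by 0.43 ± 0.12, 0.38 ± 0.10 and 0.45 ± 0.11 (limma adjusted p = 0.0345, 0.0262 and 0.0244). In control-fed skin their effects were 0.26, 0.27 and 0.30 (limma adjusted p = 0.149, 0.0878 and 0.0929). The before and after samples of Mcm4 overlapped in GC-fed skin, where it was called, and not in control-fed skin. A further Mcm3 probe, well above background in all 14 channels, gave smaller effects of 0.13 in control-fed and 0.10 in GC-fed skin. Mcm2 read 9.56, 9.86 and 9.63 before and 9.63, 9.40, 9.47 and 9.66 after SDS in control-fed skin, and 9.75, 9.59 and 9.56 before and 9.76, 9.41, 9.69 and 9.56 after in GC-fed skin. Before and after overlapped, with effects of -0.13 ± 0.10 and -0.04 ± 0.10 (limma adjusted p = 0.413 and 0.833).

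Mcm5 likewise showed no order by treatment. It read 10.37, 10.62 and 10.54 before and 10.48, 10.28, 10.34 and 10.62 after SDS in control-fed skin. GC-fed samples gave 10.50, 10.46 and 10.51 before and 10.71, 10.24, 10.63 and 10.52 after. The effects were -0.07 ± 0.11 and 0.02 ± 0.11 (limma adjusted p = 0.691 and 0.911), and those of Mcm7 were -0.19 ± 0.12 and 0.05 ± 0.12. The 4 replication calls of GC-fed skin were not stable, and the share of all genes called higher, 6.12%, moved as well. Averaged probes left 2 calls (2.67% of all genes) and processed signals 0 (3.34%). The left-out arrays gave 0 to 4 (1.21% to 7.18%). Whether the SDS effect differs between MCM genes was not tested, and each is called here from 1 probe.

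Pcna, the sliding clamp, did not pass in either diet. It read 13.13, 13.09 and 13.01 before and 13.46, 13.40, 13.06 and 13.11 after SDS in control-fed skin. In GC-fed skin it read 12.995, 13.24 and 13.33 before and 13.32, 12.89, 13.44 and 13.49 after. The lowest and the highest GC-fed samples were both after SDS, and the effects were 0.13 ± 0.10 and 0.15 ± 0.10 (limma adjusted p = 0.361 and 0.335).

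Of the nucleotide enzymes, Tyms, thymidylate synthase, was called in both diets. It read 11.69, 11.94 and 11.73 before and 12.24, 12.18, 12.07 and 12.46 after SDS in control-fed skin. The GC-fed values were 11.95, 11.79 and 11.82 before and 12.75, 12.38, 12.61 and 12.12 after. All after-SDS samples lay above all before-SDS samples, with effects of 0.48 ± 0.13 (limma adjusted p = 0.0285) and 0.59 ± 0.13 (adjusted p = 0.0146). The control-fed call was lost with averaged probes, with processed signals and without 5 of the 7 arrays in turn. A further Tyms probe, well above background in all 14 channels, gave effects of 0.18 and 0.25. Rrm2, the small subunit of ribonucleotide reductase, read 9.48, 9.78 and 9.52 before and 9.85, 9.62, 9.54 and 9.77 after SDS in control-fed skin. In GC-fed skin Rrm2 read 9.59, 9.62 and 9.54 before and 9.93, 9.64, 10.02 and 9.73 after. Its groups overlapped in control-fed skin and not in GC-fed skin, but it passed in neither (0.10 ± 0.11 and 0.25 ± 0.11, limma adjusted p = 0.568 and 0.153). The helicase factors Cdc6 (0.07 and 0.15) and Cdc45 (-0.21 and -0.18) did not pass either, and Cdc45 was well above background in 12 of 14 channels.

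A wider set of cell cycle genes was counted in the same way, beside 6.7% of all genes called higher and 8.42% called lower in control-fed skin. In GC-fed skin these shares of all genes were 6.12% and 7.47%. Of 53 further mitosis genes, 17 rose in control-fed and 20 in GC-fed skin and 0 fell, with medians of 0.24 and 0.27. Kif22, a kinesin that pushes chromosome arms, rose by 0.86 ± 0.13 and 1.05 ± 0.13 (limma adjusted p = 0.00275 and 0.00237), and Sgo1, which protects centromere cohesion, by 0.77 ± 0.17 and 0.89 ± 0.17 (adjusted p = 0.0131 and 0.00936). Of 40 further replication genes, 10 rose and 1 fell in control-fed skin and 11 rose and 1 fell in GC-fed skin, with medians of 0.14 and 0.20. Uhrf1, which couples DNA methylation to replication, rose by 0.74 ± 0.18 and 0.80 ± 0.18 (limma adjusted p = 0.0201 and 0.0171). Gmnn, the inhibitor of helicase loading, rose by 0.36 ± 0.10 and 0.51 ± 0.10 (adjusted p = 0.0313 and 0.00959), and the clamp loader subunit Rfc3 fell by 0.28 ± 0.07 and 0.23 ± 0.07 on the log2 scale (adjusted p = 0.0198 and 0.0439). These further lists were drawn up with earlier results of these data known.

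Some regulators of cell cycle entry and exit were also called. Their counts stand beside 6.7% of all genes called higher and 8.42% lower in control-fed skin, and 6.12% and 7.47% in GC-fed skin. Of the 39 members, 13 were called higher in control-fed and 23 in GC-fed skin. Of 9 G1 cyclins, kinases and regulators, 3 rose in each diet, E2f3 by 0.71 ± 0.11 and 0.79 ± 0.11 (limma adjusted p = 0.00275 and 0.00313) and Myc by 0.41 ± 0.08 and 0.38 ± 0.08 (adjusted p = 0.00686 and 0.011). Of 15 Cdk inhibitors and exit genes, 5 rose and 1 fell in control-fed skin and 4 rose and 1 fell in GC-fed skin. The Cdk inhibitor Cdkn2d rose by 0.40 ± 0.07 and 0.41 ± 0.07 (limma adjusted p = 0.00592 and 0.00759). Cdkn2c, its close relative, rose by 0.69 ± 0.08 in control-fed skin (adjusted p = 0.000883) and had an effect of 0.19 ± 0.08 in GC-fed skin (adjusted p = 0.116).

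Markers of some other skin cells also differed between before and after SDS. Of all genes, 6.7% were called higher and 8.42% lower in control-fed skin, and 6.12% and 7.47% in GC-fed skin. Of 13 hair matrix and shaft markers, 6 rose in control-fed and 8 in GC-fed skin and 0 fell, with medians of 0.75 and 1.34, among them the hair keratins Krt35 (1.97 ± 0.40 and 2.15 ± 0.40, limma adjusted p = 0.00845 and 0.00799) and Krt85 (1.47 ± 0.27 and 1.63 ± 0.27). Their summed linear intensity ran from 68182 to 369988 in control-fed skin before SDS and from 164700 to 365774 after it, and from 63019 to 166747 and from 237372 to 394381 in GC-fed skin. Of 10 basal keratinocyte markers, 0 rose and 5 fell in control-fed skin and 0 rose and 2 fell in GC-fed skin, with summed intensity from 276694 to 345211 before and from 231648 to 303000 after SDS in control-fed skin, and from 287391 to 381565 and from 276335 to 393590 in GC-fed skin. Of 7 keratins and proteins of wounded epidermis, 1 rose in control-fed skin (Krt16, by 1.12 ± 0.31, adjusted p = 0.0337) and 0 in GC-fed skin. Of 8 adipocyte markers, 3 rose in control-fed skin and 0 in GC-fed skin and 0 fell, with medians of 0.40 and 0.06 and summed intensity from 197954 to 243362 before and from 237782 to 355859 after SDS in control-fed skin, and from 181024 to 227406 and from 187567 to 252146 in GC-fed skin. Of 8 fibroblast, 10 macrophage and monocyte and 6 sebaceous markers, 0 were called in either diet. In control-fed skin 1 of 10 suprabasal keratinocyte markers fell and 1 of 10 skeletal muscle markers rose, and in GC-fed skin 0 were called. Of 8 T cell and natural killer cell markers, 0 rose and 1 fell in each diet. The part of these cell types in the rise of the mitosis genes was not tested.

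The study's own question was whether the GC diet changed skin before and after SDS. Before SDS the diet ratios of these genes were small and differed in sign between arrays. The median log2 ratio (GC-fed over control) was 0.20 on array 1, -0.14 on array 2 and 0.04 on array 3, with 36, 8 and 28 of 39 genes above 0. In the fit 31 of 39 effects were above 0, against 48.8% of all genes, but 0 of 39 genes were called, against 0% of all genes, and 0 had an unadjusted p under 0.05, as did 0.398% of all genes. The fitted median was 0.10 for mitosis genes and -0.02 for replication genes. Prc1 had the highest fitted effect, 0.37 ± 0.21 (limma adjusted p = 1), with ratios of 0.48, 0.02 and 0.46. Mcm3 had the lowest, -0.10 ± 0.13, with ratios of 0.05, -0.28 and -0.09, but a further Mcm3 probe gave a fitted effect of 0.03. Next to Prc1 in p-value came Ccnb1 with ratios of 0.36, 0.07 and 0.21, Ttk with 0.08, 0.17 and 0.10, and Cdc20 with 0.32, -0.11 and 0.23, of which Ccnb1 was above 0 on every array. The Ttk probe was well above background in 1 of 3 control-fed samples, so the sign of its ratios is not read. The fitted effects of Ccnb1, Ttk and Cdc20 were 0.22 ± 0.21, 0.09 ± 0.09 and 0.20 ± 0.21 (limma adjusted p = 1 for each). Ratios above 0 on all 3 arrays were found for 7 of 39 genes, all of them mitosis genes and among them the dim Ttk, against 9.29% of all genes, and ratios below 0 on all 3 for 0 of 39, against 9.6%.

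After SDS, 3 of 4 arrays gave GC-fed skin the higher median over the 39 genes and the last gave it the lower. The median log2 ratio was 0.21, 0.11 and 0.51 on after-SDS arrays 1, 2 and 3, and -0.21 on array 4. Of the 39 genes, 38, 28, 39 and 8 were above 0 on arrays 1, 2, 3 and 4. The replication genes alone did not follow this split. Their median was 0.20, -0.04, 0.29 and -0.04 on these arrays, with 10, 4, 11 and 5 of 11 above 0. All 39 fitted effects were above 0, as were 49.6% of those of all genes, with a median of 0.17 for mitosis genes and 0.09 for replication genes. Even so, 0 of 39 genes were called, against 0% of all genes, and 1 (Mki67) had an unadjusted p under 0.05, as did 4.47% of all genes. Without after-SDS array 3 the median of the members was -0.0007, and without array 4 it was 0.29.

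Mki67 had the highest diet effect after SDS. Its log2 ratio was 0.69, 0.70 and 0.85 on arrays 1, 2 and 3 and -0.39 on array 4. The first 3 arrays lay close together and array 4 lay on the other side of 0, and the fitted effect was 0.46 ± 0.18 (1.38-fold, limma adjusted p = 0.835). Without array 4 it was 0.72 and was called (adjusted p = 0.024), the single member among 5.44% of all genes. With the sign of array 4 turned, 9 of 39 members were called, against 10.9% of all genes, and Mki67 had an effect of 0.64 (adjusted p = 0.0171).

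Of the mitosis genes with the next smallest p-values after SDS, Nusap1 and Cdca8 showed the same split by array. Nusap1, which bundles spindle microtubules, had ratios of 0.30, 0.52, 0.73 and -0.28 on arrays 1 to 4, and Cdca8 had 0.50, 0.24, 0.49 and -0.26. Ttk, whose probe was well above background in 2 of 4 control-fed and 2 of 4 GC-fed samples, had 0.01, 0.11, 0.46 and 0.10. Apart from it, 0 of the 38 other genes had all 4 ratios above 0, against 3.37% of all genes, and 0 had all 4 below 0, against 4.62%. The fitted effects of Nusap1, Cdca8 and Ttk were 0.32 ± 0.16, 0.25 ± 0.12 and 0.17 ± 0.08 (limma adjusted p = 0.835 for each). A further Cdca8 probe, well above background in all 14 channels, gave a smaller effect of 0.07. A further Nusap1 probe, well above background in 3 of 14 channels, gave 0.11. The lowest effect was that of Cdc6, 0.02 ± 0.06, with ratios of 0.01, -0.09, 0.09 and 0.07. The ratio of Pcna followed the dye on all 7 arrays. It was -0.14, -0.13 and -0.51 on before-SDS array 1 and after-SDS arrays 1 and 2, where the GC-fed sample was in Cy3, and 0.15, 0.33, 0.39 and 0.38 on the others, where it was in Cy5.

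**Figure D4:**
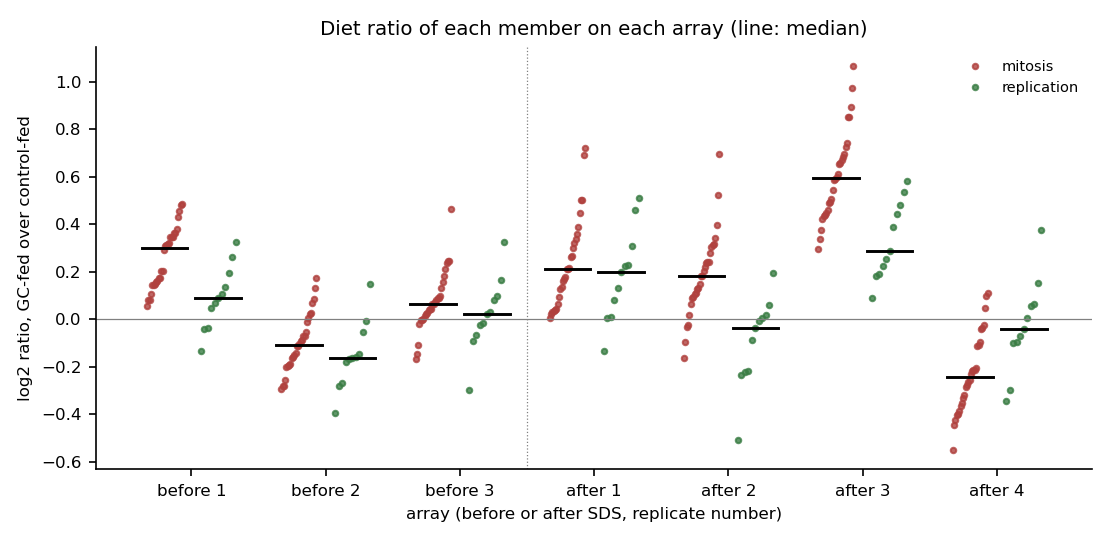
Log2 ratio (GC-fed over control) for each of 28 mitosis genes (red) and 11 replication genes (green) on each of the 7 arrays, with the median as a line. The mitosis medians are 0.21, 0.18 and 0.60 on after-SDS arrays 1, 2 and 3 and -0.24 on array 4, and before SDS they are 0.30, -0.11 and 0.06. The replication medians are 0.20, -0.04, 0.29 and -0.04 on after-SDS arrays 1 to 4, and before SDS they are 0.09, -0.16 and 0.02.

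Other marker lists differed between the after-SDS arrays as well. The median log2 diet ratio of 10 suprabasal keratinocyte markers was 1.07, 0.65 and 0.60 on arrays 1, 2 and 3 and -0.81 on array 4, and that of 10 basal keratinocyte markers was 0.43, 0.34, 0.50 and -0.22. For 10 macrophage and monocyte markers it was -0.66, -0.40, -1.23 and 0.48, and for 13 hair markers -0.32, 0.23, 0.98 and -0.31. Skeletal muscle markers had -1.37, -0.40, -1.41 and -0.26, and adipocyte markers -0.48, -0.45, -0.96 and -0.19, below 0 on all 4 arrays. Of these lists, 0 genes were called for the diet effect, and their part in the ratios of the replication and mitosis genes was not tested.

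The difference between the diet effects, which is also the difference between the SDS effects of the 2 diets, tests whether the larger counts of risers in GC-fed skin reflect a larger rise. For 0 of 39 genes was it called, against 0% of all genes, and 0 had an unadjusted p under 0.05, as did 1.21% of all genes. Its median was 0.11, with 36 of 39 genes above 0, against 48.5% of all genes. Mki67 had the largest difference, 0.35 ± 0.28, Mcm7 stood highest among the replication genes with 0.24 ± 0.17, and Prc1 had the lowest, -0.20 ± 0.27. Mcm7 had ratios of 0.09, -0.18 and -0.02 before SDS and 0.20, -0.01, 0.58 and 0.0034 after it, and Rrm2 0.11, -0.16 and 0.02 before and 0.08, 0.02, 0.48 and -0.04 after. In both genes the widest departure from 0 was that of after-SDS array 3. Without after-SDS array 3 the median was -0.06 and without array 4 it was 0.25.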

How the data were processed

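RNA of dorsal skin was measured on 7 Agilent 2-colour arrays. Per the file headers, the deposited scanner output is green and red intensity per spot, made by Feature Extraction 9.1.3.1. A deposited gene-level table holds intensity, with values under 200 set to 200, and the authors' log2 ratio (GC-fed over control); it held 34 of the 39 members and served as an alternative only. With limma 3.58.1 in R 4.3.3, the mean signal was corrected by normexp with an offset of 50 and log2 ratios were normalised by loess with control spots at weight 0. A probe was kept if 3 or more of its 14 channel readings were well above background (25117 of 41174), and the brightest probe stood for a gene.

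Diet effects came from the ratios of all 7 arrays with a dye term. SDS effects came from limma's separate-channel fit of 4 groups after Aquantile normalisation, which also had a dye term and estimated an intraspot correlation of -0.007. Errors on effects are SE. P-values measure only the spread between these samples, whose number limits the precision.

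Both fits were tested on simulated data with known changes. Alternatives were the background correction, the filter, the probe rule, the scaling, the dye term, the replicate block, the sign of after-SDS array 4 and each left-out array. The text names Mki67, Top2a, Ccnb1, Cdk1, Mcm2, Mcm5, Pcna and Rrm2, the 4 members with the smallest p in each comparison, the highest and lowest diet effects, and up to 4 genes of each other list; Tyms, Bub1b, Ttk, Kif23, Mcm3, Mcm4, Mcm6 and Mcm7 and the other members described by role were added after their values were seen. The members and lists were chosen with earlier results of these data known.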

Additional observations from a re-analysis of the deposited data

Results flagged for a closer look

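Of 69 groups of 4 samples or ratios examined, 5 had a value far from the other 3, where chance gives about 1 in 20. The level of Prc1 in GC-fed skin after SDS was 10.52 on array 4 and between 11.19 and 11.25 on the other arrays. The level of Ttk in the same group was 7.94 on array 3 and between 7.61 and 7.64 on the others, from a probe well above background in 2 of these 4 samples. The level of Mcm3 in control-fed skin after SDS was 11.81 on array 3 and between 12.01 and 12.03 on the others. The median deviation of the replication genes in the same group was -0.13 on array 3 and between 0.08 and 0.10 on the others. The diet ratio of Mki67 after SDS was -0.39 on array 4 and between 0.69 and 0.85 on the others.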

How the results depend on the processing

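For the diet effects, 0 members were called under every alternative except the sign of after-SDS array 4 turned (9 members, 8 mitosis and 1 replication, with a median ratio of 0.21 on that array) and a left-out array (0 to 1 members, 0 to 1 mitosis). The authors' deposited table gave a median ratio of 0.55 on after-SDS array 1. Members called higher after SDS in control-fed and GC-fed skin numbered 5 and 9 with probes averaged (5 and 7 mitosis, 0 and 2 replication). Under percentile scaling, which left out loess and had an intraspot correlation of 0.76, they numbered 0 and 0 (0 and 0 in each role). They numbered 8 and 12 with processed signals, an alternative added after seeing the data (0 and 0 replication, 12 mitosis in GC-fed skin), with medians of 0.41 and 0.63 and 0.35 for replication genes in GC-fed skin. Leaving out each array gave 0 to 19 members in control-fed skin (0 to 18 mitosis, 0 to 1 replication) and 5 to 25 in GC-fed skin (5 to 21 and 0 to 4). The share of all genes called higher then ran from 0.287% to 10.7% in control-fed and from 1.21% to 7.18% in GC-fed skin. With the replicate number as a block, 8 and 14 members were called (7 mitosis in control-fed and 1 replication in GC-fed skin), beside 4.35% and 3.86% of all genes. Same-numbered samples correlated between -0.13 and 0.29 in control-fed and between -0.19 and 0.09 in GC-fed skin, so the numbers were not taken to pair samples. Effects near 0 changed sign: Mcm5 in GC-fed skin with averaged probes (-0.0073), the block (-0.0059) and left-out arrays (-0.037 to 0.13), Mcm2 there with percentile scaling (0.0009) and left-out arrays (-0.10 to 0.038), and the diet difference of Rrm2 with left-out arrays (-0.014 to 0.29). Where not stated, the cause was not tested.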

Other observations

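Ncapg was not among the 39 genes because the array lists it as 5730507H05Rik, an older name that RefSeq pairs with it. Under that name its SDS effect was 0.59 ± 0.16 in control-fed skin (log2, SE, limma adjusted p = 0.0258) and 0.76 ± 0.16 in GC-fed skin (adjusted p = 0.0116), and its diet effect was 0.11 ± 0.20 before and 0.27 ± 0.17 after SDS (adjusted p = 1 and 0.835).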
